A study of Rattus norvegicus with 2 samples.

Results

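The rat cardiac small RNA tables hold 3 entries of the bicistronic muscle miRNA families, mir-1, mir-133a and mir-133b. They were taken by name from the unmarked rows of both count tables, and they are 3 of the 191 entries that could be given a ratio. The 2 libraries were made from left ventricle of Wistar rats aged 16 weeks, 1 from the control group and 1 from a group that swam in 2 sessions of 90 minutes a day over 8 weeks. Swimming training of this kind is used as a model of physiological cardiac hypertrophy, in which the heart grows in response to exercise. How many animals stand behind a library is not stated in the sources used here. The miRNA rows of the control library held 2460845 counts and those of the swim library 3219939. Each condition has 1 library, so every difference given here is a difference between these 2 libraries, no test between conditions was possible, and the 95% intervals cover counting error only.

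In mammals the mir-1 and mir-133a hairpins are cut from shared primary transcripts that muscle transcription factors such as SRF and MEF2 switch on, while mir-133b is made together with mir-206 from a separate locus that is best known in skeletal muscle. The products of the shared transcripts act differently. In mouse studies miR-1 favours muscle differentiation, and miR-133 is known as a brake on cardiomyocyte growth and for targeting Srf. Both are textbook markers of heart and skeletal muscle.

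All 3 entries were matched by name to RefSeq rat hairpins, and their mature sequences are shown because they set which rows can share reads. Sequences are from RefSeq (build GRCr8), written 5′ to 3′ with the seed, bases 2 to 8, in capitals. The tables were made with other builds (rn5 and rn4 are named in the submitters' processing notes), so positions serve only to place the hairpins.
rno-miR-1-3p: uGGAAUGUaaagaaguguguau
rno-miR-1b: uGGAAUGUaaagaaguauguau
rno-miR-206-3p: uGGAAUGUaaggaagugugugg
rno-miR-133a-3p: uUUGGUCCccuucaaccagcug
rno-miR-133b-3p: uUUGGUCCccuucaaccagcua
rno-miR-133a-5p: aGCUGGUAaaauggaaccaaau
rno-miR-133b-5p: gCUGGUCAaacggaaccaagu

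By seed the 3p products form 2 groups. The first holds miR-1-3p, miR-1b and miR-206-3p, with the seed GGAAUGU, and the second holds miR-133a-3p and miR-133b-3p, with the seed UUGGUCC, and no other rat mature miRNA in the RefSeq table had either seed. The 3p products of mir-133a and mir-133b agree at 21 of 22 positions and differ by G22A, counted from 1 at the 5′ end with the mir-133a base first, so a read that stops before base 22 is the same for both. Their 5p arms have different seeds, and 18 of the 22 columns of their alignment are identical. Between miR-1-3p and miR-1b the only difference is G17A, inside the mature sequence. The tables used here have a row for mir-1 but none for mir-1b or mir-206. Rows carry hairpin names with no arm given. The sources used here do not say whether a row sums both arms or how a read matching several hairpins was counted.

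The hairpins of the 3 entries sit in 2 places in the genome. The mir-1 hairpin (Mir1) lies at chr18:2160327-2160413 and mir-133a (Mir133a1) at chr18:2157872-2157958, both on the minus strand with 2368 bases between them. The mir-133b hairpin (Mir133b) lies at chr9:30594582-30594665 on the plus strand, beside mir-206. The relative mir-1b (Mir1b) stands at chr3:187864685-187864769 on the plus strand.

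The 3 entries moved apart between the libraries. The level of mir-133b in the swim library was 1.95 times that in control, the level of mir-133a was 1.18 times that in control, and mir-1 stood at 0.624 of its control level. Levels are in CPM, the count of a row divided by the library total of the unmarked miRNA rows and multiplied by 1e6. The printed mature products are 21 or 22 bases long, so levels of different entries were set side by side with no length correction.

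The mir-133a row, the most abundant of the 3, held 152297 counts in control (95% exact Poisson interval 151533 to 153064) and 234320 in swim (233372 to 235271). That is 61888 CPM in control and 72772 CPM in swim, and the swim-to-control ratio of these levels was 1.18 (95% exact conditional binomial interval 1.17 to 1.18). In both libraries mir-133a ranked 5th of 191 by count, behind the same 4 entries, mir-143, mir-22, mir-30a and mir-10a. Its share of the miRNA counts was 6.19% (exact binomial interval 6.16 to 6.22%) in control and 7.28% (7.25 to 7.31%) in swim.

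The mir-133b row held 4859 counts in control (4723 to 4998) and 12422 in swim (12205 to 12642). The level went from 1975 CPM in the control library to 3858 CPM in the swim library, by a ratio of 1.95 (1.89 to 2.02). It moved from the 37th to the 26th place by count. In control its count could not be told from those of mir-92a-1 (5001), mir-101a (4986) and mir-30b (4775) within counting error. In swim only mir-186 (12619) of its 4 nearest neighbours by rank was as close.

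The mir-1 row held 3231 counts in control (3121 to 3344) and 2640 in swim (2540 to 2743), so the count itself was lower in swim although the swim library was larger. The level went from 1313 CPM in the control library to 819.9 CPM in the swim library, by a ratio of 0.624 (0.593 to 0.658). By count it moved from the 48th to the 54th place. In control its count was the same within counting error as that of both mir-103 copies (3234), while in swim none of its 4 nearest neighbours by rank, mir-28, mir-142, mir-195 and mir-208a, was within counting error of it. With a share of 0.131% (0.127 to 0.136%) in control and 0.0820% (0.0789 to 0.0852%) in swim, the mir-1 row is a small part of both libraries, and its count was lower than that of mir-133b in each. There is no row for mir-1b, whose mature sequence differs from miR-1-3p at 1 base, and the counting of shared reads is not stated. This row may therefore hold only a part of the reads of miR-1, and how large a part is not known. Every value given for mir-1, its ratios to other entries included, is a value of this row and not of miR-1 as a whole.

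**Figure D1:**
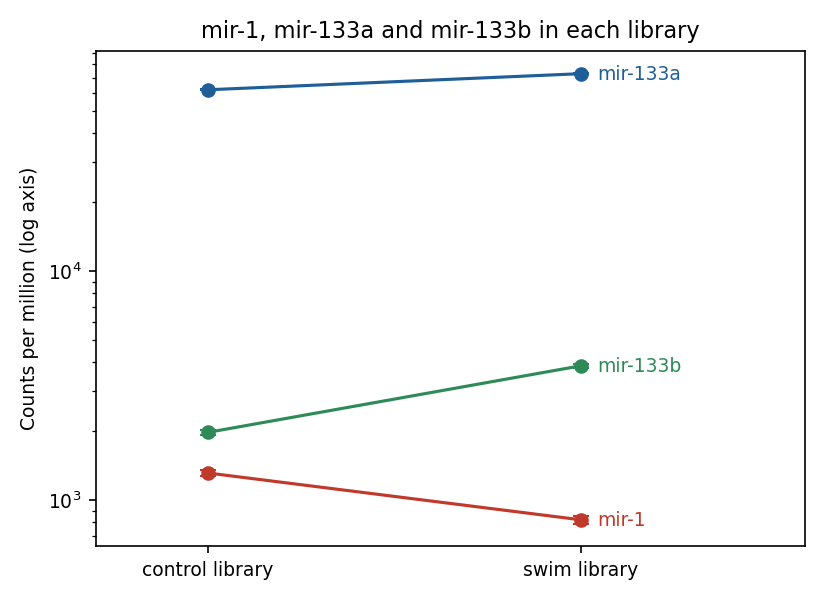
Level of mir-1, mir-133a and mir-133b in the control and swim libraries, in CPM on a log axis, 1 library each, with 95% Poisson intervals that are mostly smaller than the points. The mir-133a line runs from 61888 to 72772 CPM, mir-133b from 1975 to 3858 CPM, and mir-1 falls from 1313 to 819.9 CPM.

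Summed, mir-133a and mir-133b stood at 63863 CPM in the control library and at 76629 CPM in the swim library, a ratio of 1.20 (1.19 to 1.21). With mir-1 added, the 3 entries took 6.52% of the counts in control and 7.74% of those in swim, a ratio of 1.19 (1.18 to 1.20). Because mir-133a made up 94.96% of the 3 entries' counts in control and 93.96% in swim, these sums follow it closely. The share of mir-133b among the 3 was 3.03% (2.95 to 3.11%) in control and 4.98% (4.90 to 5.07%) in swim, and that of mir-1 was 2.01% (1.95 to 2.08%) and 1.06% (1.02 to 1.10%).

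Whether an entry was called higher or lower was decided by a size rule, a log2 ratio of at least 1 in size (2-fold, with a pseudocount of 0.5 on each count) and an interval that excludes a ratio of 1. None of the 3 entries passed it. Of the 173 entries whose counts summed to at least 20, 6 were called higher, which is 3.47%, and 57 lower, which is 32.9%. This split depends on the scaling, with TMM factors giving 11 higher and 33 lower, unscaled counts 12 and 30, and median-of-ratios factors 18 and 26. In either library the lowest count of an entry with a ratio was 1 and the next was 5. The sources used here do not say whether a 1 is a true count. Some calls rest on such rows, as for mir-671 (1 and 20 counts), called higher, and let-7i (145 and 1), called lower. The log2 ratio of mir-133b was 0.97, that of mir-133a 0.23 and that of mir-1 -0.68, against a median of -0.59 over the 173.

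The lower calls all fell among rows of lower count. The 3 entries were therefore also set beside the 70 entries whose counts summed to at least 2000, a bound chosen after the values were seen. Of these 70, 3 (4.29%) were called higher and 0 (0%) lower, and their median log2 ratio was 0.07, with quartiles at -0.17 and 0.32. The mir-133b ratio ranked 4th of 70, after mir-204 (2.70), mir-208b and mir-148b. The mir-133a ratio ranked 21st, with 49 entries below it. The mir-1 ratio ranked 69th, with only mir-99b (0.578) lower. Relative to the median of the 70, mir-133b lay 0.89 above and mir-133a 0.16 above on the log2 scale, and mir-1 stood at -0.75.

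**Figure D2:**
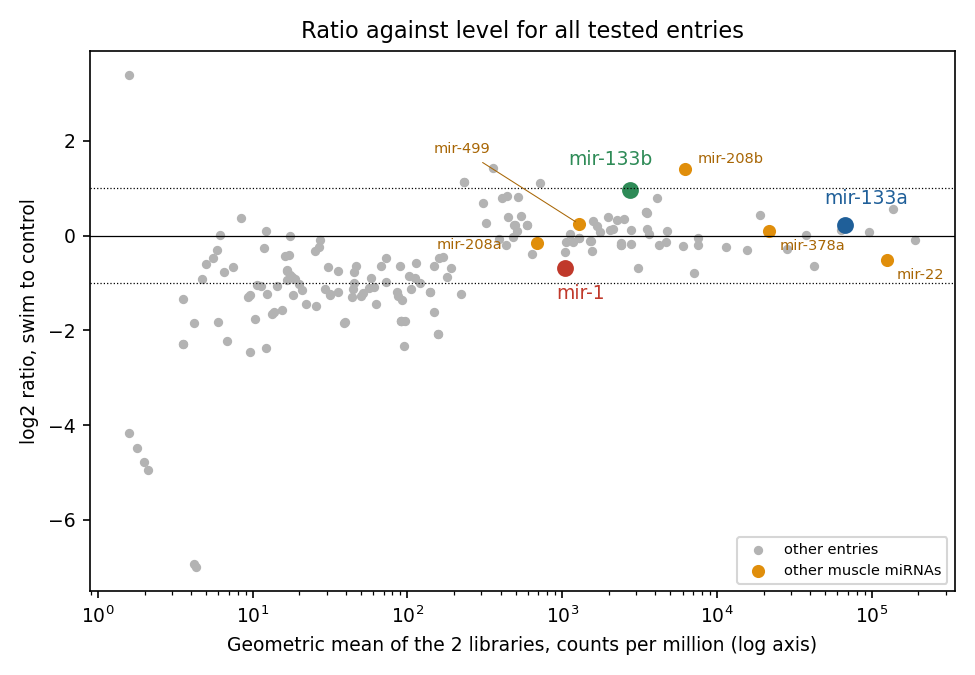
Log2 ratio of swim to control (vertical axis) against the geometric mean level of both libraries in CPM (log axis) for the 173 tested entries, with the 3 members in colour and 5 other muscle miRNAs in orange; dotted lines mark the 2-fold size rule. Points of high level lie around 0, mir-133b stands just under the upper dotted line at 0.97, and mir-1 stands at -0.68, among the lowest at its level.

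The size of each ratio depends on how the libraries are scaled. The order of the 3 cannot change, because a scaling applies 1 factor to every ratio. Across the 6 scalings tried, the mir-1 ratio ran from 0.578 to 0.943, the mir-133a ratio from 1.09 to 1.78 and the mir-133b ratio from 1.81 to 2.95. So mir-1 stayed below 1 and both mir-133 entries above 1 under each of the 6. With unscaled counts, TMM factors or median-of-ratios factors, mir-133b passed the size rule. Relative to the scaling used here, median-of-ratios factors raise every log2 ratio by 0.59, TMM factors by 0.28 and unscaled counts by 0.39, while adding the row named Others, which names no miRNA, to the totals lowers it by 0.11.

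**Figure D3:**
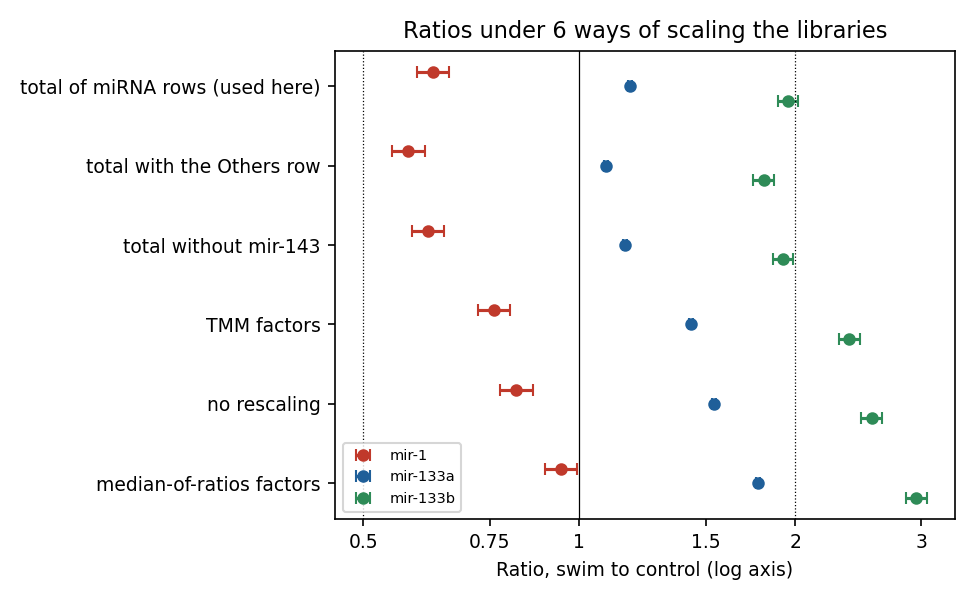
Swim-to-control ratio (log axis) of mir-1, mir-133a and mir-133b under 6 ways of scaling the 2 libraries, with 95% counting intervals; the solid line marks a ratio of 1 and the dotted lines the 2-fold size rule. In each scaling mir-1 lies left of 1, between 0.578 and 0.943, and mir-133b lies farthest right, between 1.81 and 2.95.

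Ratios between entries of the same library are free of any scaling. For every count of mir-1 there were 47.1 of mir-133a in control (45.5 to 48.8) and 88.8 in swim (85.4 to 92.3), a change of 1.88-fold (exact conditional interval 1.79 to 1.98). Of mir-133b there were 1.504 per count of mir-1 in control (1.44 to 1.57) and 4.71 in swim (4.51 to 4.91), a change of 3.13-fold (2.94 to 3.33). The mir-133a count was 31.3 times that of mir-133b in control (30.5 to 32.3) and 18.9 times in swim (18.5 to 19.2), so this ratio fell to 0.602 of its control value (0.582 to 0.623). All 3 pairs therefore parted by more than counting error.

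Because the 3p products of mir-133a and mir-133b differ only at base 22, the number of reads behind their parting is of interest. Of the summed mir-133 counts, mir-133b held 3.09% in control and 5.03% in swim. At its control share it would have held 7629 counts in swim, 4793 fewer than listed, and those 4793 counts equal 2.05% of the swim mir-133a row. Whether reads ending before base 22 were placed differently in the 2 tables was not tested. For mir-1, at its control ratio to mir-133a the swim row would have held 4971 counts, against the 2640 listed.

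The pair mir-133a and mir-1 was then set beside other hairpins that lie close together in the genome, a comparison chosen after the values were seen. Hairpins on the same strand with at most 10 kb between them in GRCr8 were paired. Of the 191 entries 173 had a hairpin position in the RefSeq table, and 19 entries were left out because another listed copy had counts within 5% of theirs. This filter saw only listed copies of the same name. It did not cover mir-1b, which has no row, or mir-133b, so reads in the mir-1 and mir-133a rows may come from other loci. This gave 10 pairs in which the counts of each entry summed to at least 2000. The pairs share entries, 17 in all, and are not independent of each other. The ratio within a pair differed between the libraries by 1.02-fold to 1.88-fold, with a median of 1.28-fold, and mir-133a with mir-1 differed most. Next came mir-143 with mir-145, at 1.41-fold, and mir-99b with mir-125a, at 1.39-fold. Of all 20 pairs in which each entry had counts summing to at least 100, the mir-133a and mir-1 pair ranked 5th, after 4 pairs in which an entry summed to fewer than 2000 counts, such as mir-195 with mir-497 at 4.22-fold.

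**Figure D4:**
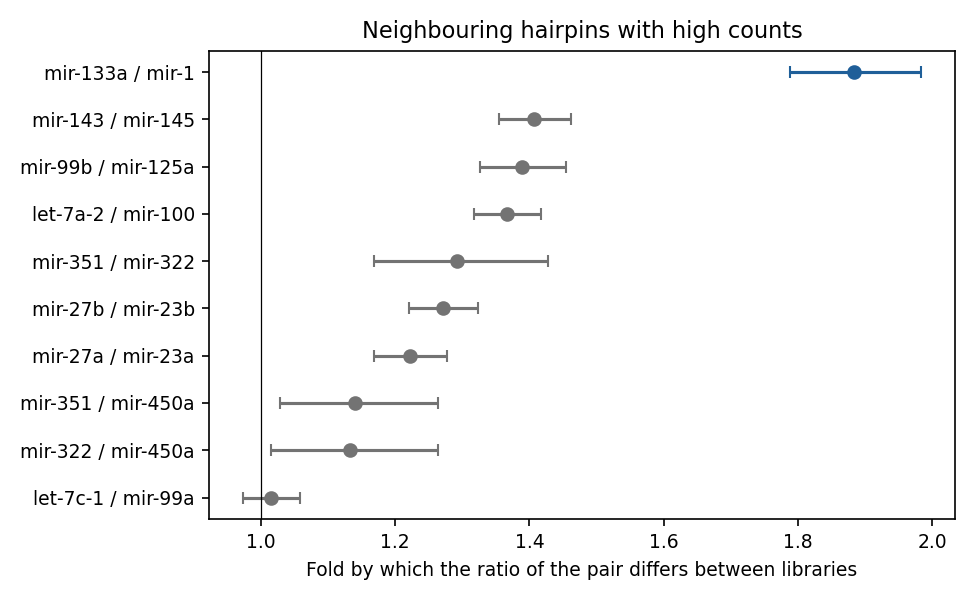
Fold by which the count ratio of 2 neighbouring hairpins differed between the libraries, for the 10 pairs whose entries each summed to at least 2000 counts, with 95% (Woolf) counting intervals; a value of 1 means the same ratio in both. The pair mir-133a and mir-1 lies farthest right at 1.88, and the other 9 lie between 1.02 and 1.41. Reads in the rows of this pair may also come from mir-1b or mir-133b.

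Other miRNAs of striated muscle gave no common direction. Of the 7 names in the list, 5 had a row, mir-206 and mir-486 having none. Of these 5, 1 was called higher and 0 lower, against 3.47% and 32.9% over all 173 entries. Their median log2 ratio was 0.09, against -0.59 over the 173. But each of the 5 summed to at least 2000 counts, and over the 70 such entries the median was 0.07, with 4.29% called higher and 0% lower. The list median was thus close to that of entries of like count. The called entry was mir-208b, encoded in the slow myosin gene Myh7, at 2.64 (2.58 to 2.71). The others were mir-499, encoded in Myh7b, at 1.19 (1.13 to 1.24), mir-378a, encoded in Ppargc1b, at 1.06 (1.05 to 1.08), mir-208a, encoded in the fast cardiac myosin gene Myh6, at 0.899 (0.843 to 0.958), and mir-22 at 0.703 (0.699 to 0.706). The mir-1 ratio of 0.624 was lower than any of these 5, and mir-133b was exceeded by mir-208b alone.

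In whole ventricle, fewer cells of a type and less RNA per cell cannot be told apart, so the 3 entries were also divided by single miRNAs that mark a cell type. Against mir-499, a cardiomyocyte miRNA, mir-133a did not differ beyond counting error, with a change of 0.990-fold (0.944 to 1.04), while mir-133b changed 1.64-fold (1.55 to 1.74) and mir-1 0.526-fold (0.490 to 0.564). Against mir-208a the changes were 1.31-fold (1.23 to 1.39) for mir-133a, 2.17-fold (2.02 to 2.34) for mir-133b and 0.695-fold (0.640 to 0.754) for mir-1. Against mir-208b all 3 were lower in swim, at 0.445-fold for mir-133a, 0.739-fold for mir-133b and 0.236-fold for mir-1. The direction of mir-133a and mir-133b thus depended on which cardiomyocyte miRNA they were divided by. That mir-1 was lower in swim against each of the 3 follows from its ratio being below theirs.

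The 3 entries were also divided by miRNAs of other cells. Because 1 divisor serves all 3, their order is fixed in advance, and only the sizes and directions can differ. Against the endothelial mir-126a, mir-133a changed 1.16-fold, mir-133b 1.93-fold and mir-1 0.617-fold. Against mir-143 of vascular smooth muscle the changes were 1.26-fold, 2.09-fold and 0.667-fold. The other smooth muscle name, mir-145, was not used as a divisor. Its swim-to-control ratio was 1.32 (1.27 to 1.37), against 0.936 for mir-143, and so lay above the 1.18 of mir-133a. The direction of mir-133a thus depends on which smooth muscle miRNA is taken as well. The summed share of the smooth muscle list (2 of 2 names with a row) was 19.97% in control and 18.76% in swim. It was 3.75% and 3.80% for the endothelial mir-126a, 0.712% and 0.699% for leukocytes (4 of 5), 0.965% and 0.885% for fibroblasts (3 of 3), and 0.00293% and 0.00248% for erythroid cells (1 of 3). Of the cardiomyocyte list 3 of 3 had rows, and together they took 0.570% in control and 1.21% in swim. The rise of this sum rests on mir-208b, since mir-208a and mir-499 alone summed to 0.190% in control and 0.205% in swim. The skeletal muscle marker mir-206 had no row. What part such shares have in the ratios of the 3 entries was not tested.

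**Figure D5:**
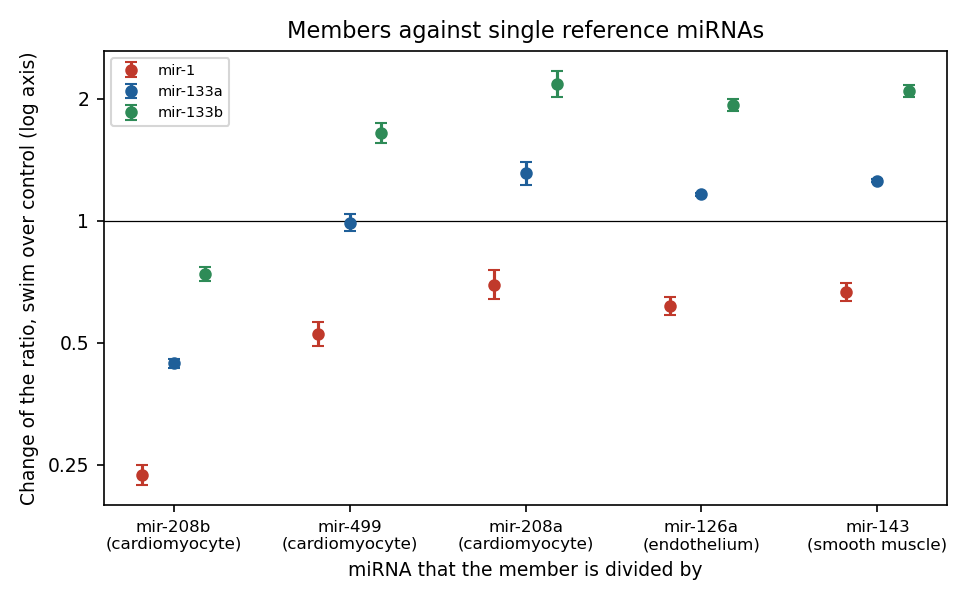
Change between the libraries (swim over control, log axis) of the count ratio of each of the 3 entries to 5 single miRNAs, with 95% (Woolf) counting intervals. The mir-1 points lie below 1 for each of the 5 miRNAs, from 0.236 to 0.695, mir-133b lies above 1 for all but mir-208b, and mir-133a lies at 0.990 against mir-499.

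Among miRNAs studied in rodent cardiac hypertrophy, the setting in which miR-1 and miR-133 are best known, 16 of 18 listed names had rows. Of their 19 tested entries 2 were called higher and 6 lower, which stand for 1 and 3 of 15 distinct miRNAs. Over all 173 tested entries 3.47% were called higher and 32.9% lower. With copies counted separately the lower calls of the list thus lay near the share over all entries. With hairpin copies summed, 5 of 157 entries were called higher and 49 lower, against 1 and 3 of the 15 distinct miRNAs. The list median log2 ratio was -0.17, against -0.59 over all tested entries and 0.07 over the 70 with at least 2000 summed counts. The list mixes entries of high and low count. The higher call was mir-19b, in both copies, at 2.19 (1.95 to 2.47). The lower calls were mir-29b at 0.236 (0.204 to 0.273), mir-9a at 0.287 (0.237 to 0.345) and mir-214 at 0.370 (0.296 to 0.461), each with at most 795 counts in either library. Of the entries with more counts, mir-195, of the miR-15 family and known in mice for driving cardiac growth, had a ratio of 1.75 (1.62 to 1.89), and mir-29a one of 1.39 (1.36 to 1.43). The entry mir-21, linked to cardiac fibroblasts, had 0.866 (0.850 to 0.883), and mir-23a and mir-27b had 0.888 and 0.828. Above 1 but under the size rule were also mir-29c at 1.78, mir-199a at 1.25 and mir-132 at 1.08, the last on 29 and 41 counts. Its cluster partner mir-212 was listed at 1 and 7 counts and was not tested.

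The entries most like each of the 3 were those nearest in log2 ratio, taken where the counts of both libraries summed to at least 100. This likeness rests on the same 2 libraries and therefore on 1 ratio. Nearest to mir-1 were mir-221 (0.625), mir-100 (0.628) and mir-194-1 (0.634), the last of them 0.02 away on the log2 scale. Nearest to mir-133a were mir-107 (1.18) and both copies of mir-181b (1.17), within 0.01. For mir-133b the nearest entries were farther off, mir-29c (1.78) and mir-148b (2.15) at 0.14 and mir-195 (1.75) at 0.16.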

How the data were processed

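For each library the authors deposited a table of counts, whole numbers per hairpin name with no scaling seen in the values. Per the labels' protocols, total RNA came from a miRNeasy extraction and Illumina's small RNA method was used for the libraries. The submitters' processing notes name Bowtie 0.12.2 and the builds rn4 and rn5 without saying what each was used for. Read trimming, the handling of reads matching several hairpins and the annotation release are not stated in the sources used here. Of 203 rows, the 9 marked with an asterisk repeated an unmarked row and were left out, as was the row Others. The name let-7e, in 2 unmarked rows, stayed in the totals but got no ratio. Libraries were scaled to the total of the unmarked miRNA rows (CPM). Ratios carry exact conditional binomial intervals, ratios of ratios exact conditional or Woolf intervals (SciPy 1.17.1). PCR reads without molecular identifiers are not independent molecules, so intervals cover counting error only. With 1 library per group no test between conditions was made. TMM factors came from edgeR 4.0.16, used for these alone. Named entries were the 3 members, the lists, the 3 entries nearest in ratio and the 2 ranked on either side of each member. Any other entry named was picked with its values in view. The members and lists were chosen with earlier results of these data known.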

Additional observations from a re-analysis of the deposited data

Results flagged for a closer look

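The row named Others, which is outside the miRNA entries, held 12.5% of all counts in the swim library against 5.41% in the control library. It was picked out as data left out of the ratios, by its share in the swim library. With this row added to the totals the ratio of mir-1 was 0.578, that of mir-133a 1.09 and that of mir-133b 1.81. The sources used here do not say what the row holds.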

How the results depend on the processing

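The ratios of the 3 entries and their sums stayed on the same side of 1 under each alternative run, and ratios between members stayed within their intervals under a pseudocount of 5 and with both mir-133 rows summed. Scaling moved the sizes. With median-of-ratios factors the swim-to-control ratios were 0.943 (mir-1), 1.78 (mir-133a), 2.95 (mir-133b), 1.81 (both mir-133 rows) and 1.79 (all 3). With TMM factors they were 0.760, 1.43, 2.38, 1.46 and 1.45 in the same order, and with no rescaling 0.817, 1.54, 2.56, 1.57 and 1.55. With the Others row in the totals they were 0.578, 1.09, 1.81, 1.11 and 1.10. Without mir-143 in the totals mir-133a had 1.16, both mir-133 rows 1.18 and all 3 rows 1.17. Calls over all entries were 18 higher and 26 lower with median-of-ratios factors, 11 and 33 with TMM factors, 12 and 30 with no rescaling, and 1 and 26 under a 3-fold rule. The 1.5-fold rule gave 12 higher and 82 lower calls, no count filter 9 and 64, a summed count of at least 100 gave 36 lower calls, and 2 settings chosen after seeing the data gave 3 and 0 (a summed count of at least 2000) and 2 and 0 (at least 1000 in both libraries), so the excess of lower calls was not seen at high counts. With at least 1000 counts in both libraries, which removes entries such as mir-204 that pass 1000 in swim alone, mir-133b ranked 3rd of 64 by ratio, mir-133a 16th and mir-1 63rd. Among its 19 tested entries, with hairpin copies counted separately, the hypertrophy list had 5 higher and 5 lower calls with median-of-ratios factors. It had 4 higher and 6 lower with TMM factors, no rescaling or the 1.5-fold rule. Over all 173 tested entries these 4 settings gave 18 and 26, 11 and 33, 12 and 30, and 12 and 82 calls. The fewer calls under the 3-fold rule follow from a larger bound, and the shifts under scaling from 1 factor applied to every ratio. Higher count filters left fewer entries, but the share called lower fell as well. It was 32.9% of 173 entries at a summed count of at least 20 and 0% of 70 at 2000. The other ratios stayed within the intervals of those reported and the other counts of calls within 1.5 times. No paired analysis was possible because each group has 1 library. No library could be left out for the same reason.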
